A study of Mus musculus with 4 samples.

Results

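The cells described here are splenocytes that the authors' deposited annotation names GC Centrocyte. They were taken by that name alone from the 4 raw count matrices, and there were 374 of them among 24143 annotated cells. Spleens of C57BL/6 mice gave 4 droplet libraries of single-cell RNA, 1 library per group. The double knockout lacked miR-146a in the whole body and miR-155 in T cells; the Cre line behind the T cell deletion is not named in the labels. The miR-146a knockout lacked miR-146a in the whole body. Wild type (WT) mice were homozygous for a floxed miR-155 allele, and the labels do not say whether the miR-146a knockout carried it too. The double knockout, the miR-146a knockout and the aged WT were 15 months old, and each of these libraries pooled the spleens of 3 to 6 mice. The young WT is labelled only as young. Before capture the splenocytes were sorted for viability, CD45 and low scatter in both directions. Both 3' and 5' chemistry appear in the labels, so which one was used is unsure.

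With 1 library per group there were no replicates, so no difference between groups could be tested. Every interval below is at 95% and covers counting error only, not the spread between mice, pools or preparations. Levels are CPM, UMIs of a gene per 1000000 UMIs summed over the named cells of a library. The 374 cells held 2135898 UMIs in all, with a median of 5684 UMIs per cell, and 45 of them had more than 8000. Their medians were 5228 UMIs in the double knockout, 5622 in the miR-146a knockout, 6682 in aged WT and 6375 in young WT. Libraries shared between 48 and 91 barcodes per pair, no barcode carried the name in more than 1 library, and 16 of the 374 cells had a barcode that was also present in another library.

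Germinal centres are sites in the B cell follicle where B cells that have met antigen divide and change their antibody genes. In the dark zone, cells called centroblasts divide and their antibody genes gather changes. In the light zone, cells called centrocytes are selected by antigen and by follicular helper T cells, and some switch the heavy chain class of their antibody. By convention, then, it is the centroblast that divides. The 2 microRNAs of the study act by pairing their seed with messenger RNAs. miR-146a dampens NF-kB signalling, and miR-155, made from the transcript Mir155hg, is induced when lymphocytes are activated and is needed for strong germinal centre responses. The mature strands are shown because they are what the 2 deletions remove. The capitals mark the seed, bases 2 to 8, and the sequences and positions are from RefSeq on GRCm38.p6.
miR-146a-5p, chr11:43374435-43374456, minus strand: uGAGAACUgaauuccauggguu
miR-146b-5p, chr19:46342790-46342811, plus strand: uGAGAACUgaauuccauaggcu
miR-155-5p, chr16:84714143-84714165, plus strand: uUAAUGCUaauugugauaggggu
miR-146b-5p, encoded by another gene that the design does not name, carries the same seed as miR-146a-5p.

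The first question was whether the cells bear their name. As a set they were cycling cells with a germinal centre programme, which stood against the cells named GC Centroblast. Mki67, the proliferation antigen Ki-67, was at 292 CPM in the double knockout, 350 in the miR-146a knockout, 219 in aged WT and 345 in young WT. In the cells named GC Centroblast it was at 1.75, 2.18, 1.84 and 1.53 CPM in the same order of libraries. Top2a, the topoisomerase that untangles chromosomes before division, was at 540, 633, 435 and 599 CPM, against 12.2, 12, 6.76 and 3.83 CPM in cells named GC Centroblast. The germinal centre transcription factor Mef2b was at 374, 384, 260 and 74.9 CPM, against 9.92, 8.72, 8.60 and 4.60 CPM. Rgs13, a regulator of chemokine receptor signalling in germinal centre B cells, was at 432, 348, 282 and 221 CPM, against 14.0, 9.81, 11.7 and 21.4 CPM. All 4 of these marker genes were thus higher under the name GC Centrocyte in every library, and Mef2b was lowest in young WT.

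The labels do not say how the names were assigned. Since names of this kind come from the counts themselves, the differences between names are a description and were not tested. At least 2-fold higher than in cells named GC Centroblast in all 4 libraries were 507 of 8372 genes, or 6.06%, and 66 genes, or 0.788%, were at least 2-fold lower in all 4. Of the proliferation list 18 of 18 members were higher, of the G2 and M phase list 46 of the 48 that entered, and of the S phase list 37 of 42. The proliferation list had a median of the mean log2 ratio of 5.91, and the germinal centre B list, with 10 of 14 members higher, of 4.15, against 0.17 over all genes. The genes at the top included Ccnb2 and Ccna2, cyclins of the dividing cell, Cdk1, the kinase they activate, Birc5, the survivin subunit of the mitotic Aurora B complex, and Gcsam, a germinal centre signalling adaptor. On the lower side none of the 18 light zone members was higher in all 4 libraries and 5 were lower, with a median of −1.08. Myc, a growth regulator of recently selected light zone cells, was at 18.3, 5.44, 19.0 and 22.5 CPM in the double knockout, the miR-146a knockout, aged WT and young WT, against 68.9, 59.9, 79.3 and 129 CPM under the name GC Centroblast. Cd83, a light zone surface marker, was at 211, 157, 165 and 74.9 CPM, against 397, 429, 424 and 377 CPM. The mature resting B list had a median of −1.16, with 3 of 12 members lower, and the MHC class II list of −0.83. Lower values were therefore not particular to the light zone genes. The part that non-B and other cells under the name, described below, had in them was not tested. Proliferation ran opposite to the textbook use of the 2 names, and the cells are called by the authors' name here without further meaning.

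Against cells named Fo B, the follicular B cells, 727 of 8993 genes, or 8.08%, were at least 2-fold higher in all 4 libraries and 179, or 1.99%, were lower. Of the germinal centre B list 11 of 14 members were higher. Lower were 8 of 12 genes of the mature resting B list, with a median of −2.10, and 6 of 11 genes of the MHC class II list, with a median of −1.26. Cd55, a complement regulator of resting B cells, was at 13.4, 13.6, 19.0 and 56.2 CPM, against 421, 372, 478 and 459 CPM in Fo B cells. The name also held non-B cells, whose counts are given below, and their part in the lower B cell genes was not tested.

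The genes that set the cells apart most were genes of mitosis, and their promoters share sequence elements that the cell cycle machinery is known to use. The CCAAT box is bound by NF-Y, and the CHR element, TTTGAA, by the DREAM and MuvB complexes that keep mitotic genes silent until G2. Both were searched on both strands in the 300 bases around each start (250 before, 50 after), as RefSeq on GRCm38.p6 gives them; the letters do not overlap each other. Both were present in 27 of the 46 promoters found for the 54 genes of the G2 and M phase list, or 58.7%, against 2425 of all 27025 promoters, or 8.97%. For the S phase list the share with both was 4 of 30, or 13.3%, and for the germinal centre B list 2 of 12, or 16.7%. The promoters of the 2 marker genes and of Ccnb2 are shown because each holds both elements. They are written along the gene, and capitals mark a CCAAT or a TTTGAA on either strand.
Top2a, chr11:99024140-99024439, minus strand: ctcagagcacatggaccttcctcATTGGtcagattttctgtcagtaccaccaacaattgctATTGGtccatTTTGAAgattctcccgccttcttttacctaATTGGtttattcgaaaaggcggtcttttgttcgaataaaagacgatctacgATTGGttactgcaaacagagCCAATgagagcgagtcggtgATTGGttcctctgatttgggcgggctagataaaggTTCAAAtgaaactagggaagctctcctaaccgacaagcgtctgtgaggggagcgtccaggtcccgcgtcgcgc
Mki67, chr7:135716330-135716629, minus strand: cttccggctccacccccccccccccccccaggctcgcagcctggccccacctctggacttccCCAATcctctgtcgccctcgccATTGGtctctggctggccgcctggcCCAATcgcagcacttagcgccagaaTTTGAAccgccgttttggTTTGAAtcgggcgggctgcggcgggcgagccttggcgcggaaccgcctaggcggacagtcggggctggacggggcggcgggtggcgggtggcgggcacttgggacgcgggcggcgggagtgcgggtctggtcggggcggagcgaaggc
Ccnb2, chr9:70421505-70421804, minus strand: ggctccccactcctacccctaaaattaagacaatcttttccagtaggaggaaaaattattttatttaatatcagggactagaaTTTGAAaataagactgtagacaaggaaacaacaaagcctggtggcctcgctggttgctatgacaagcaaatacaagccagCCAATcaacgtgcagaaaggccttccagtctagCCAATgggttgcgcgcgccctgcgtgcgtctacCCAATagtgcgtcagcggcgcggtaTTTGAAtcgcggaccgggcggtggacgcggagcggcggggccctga
Top2a held 6 CCAAT boxes and 2 CHR elements, and Mki67 and Ccnb2 held 3 and 2 each. A match is a run of letters and no measure of binding.

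The name was not 1 kind of cell. Cells were sorted by how many genes of a marker list had a UMI, taking T, erythroid, platelet, NK, myeloid, germinal centre and precursor markers in that order, and then the B lineage. Germinal centre marker cells, with at least 5 of 15 markers, were 177 of the 374, or 47.3%. Precursor marker cells, with at least 3 of 10 genes of early B cells, were 71, or 19.0%. B cells below both of these limits were 62, or 16.6%, and are called other B cells. T marker cells, with at least 5 of 12 markers, were 50, or 13.4%. The rest were 3 erythroid, 1 platelet, 2 NK and 1 myeloid marker cells and 7 unresolved cells. The counts of markers are ranges and not types. At the limit of the germinal centre markers 10 cells lay just inside and 6 just outside, and at that of the T markers none inside and 1 outside. The precursor limit was the softest, with 25 cells just inside and 45 just outside. T and B markers were both present in 7 cells, and germinal centre and precursor markers in 5.

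Shares of all annotated cells of a library differed most between the knockouts and the WT mice. The name took 150 of 6594 cells of the double knockout, or 2.28% (1.93 to 2.66), 129 of 4832 of the miR-146a knockout, or 2.67% (2.23 to 3.16), 51 of 5896 of aged WT, or 0.865% (0.645 to 1.14), and 44 of 6821 of young WT, or 0.645% (0.469 to 0.865). The share in the miR-146a knockout was 3.09 times that in aged WT (2.24 to 4.26). In the double knockout it was 0.852 times that in the miR-146a knockout (0.675 to 1.08) and 2.63 times that in aged WT (1.92 to 3.61), and in aged WT it was 1.34 times that in young WT (0.897 to 2.00). Only the 2 ratios of a knockout to aged WT had intervals that lay off 1. Some barcodes above 9000 UMIs carry no name. Those of them with B markers and at least 5 proliferation markers were added to the cells of the name, and all of them to the annotated cells. The share was then 3.12%, 4.25%, 1.19% and 0.787%. The double knockout stood at 0.733 times the miR-146a knockout (0.609 to 0.882), and aged WT at 1.51 times young WT (1.06 to 2.14). This share is defined unlike the main one, since unnamed T marker barcodes were not added to the name, which holds T marker cells.

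**Figure D1:**
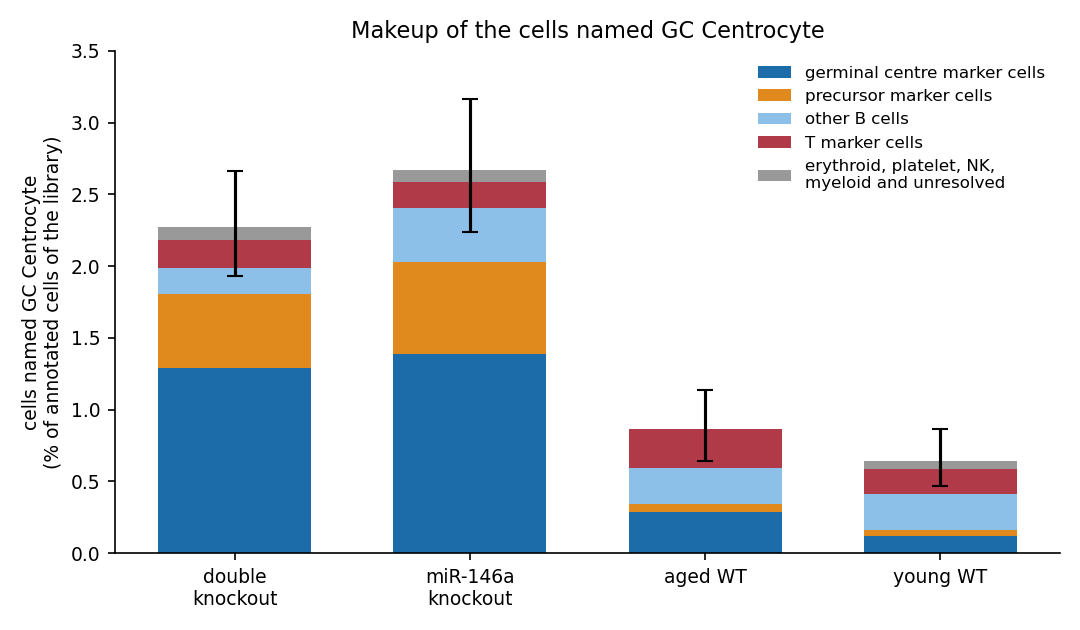
Cells named GC Centrocyte as a percentage of the annotated cells of each library, stacked by marker set; the black bars are 95% exact binomial intervals of the whole share (counting error only, 1 library per group). The double knockout and the miR-146a knockout stand at 2.28% and 2.67%, aged WT and young WT at 0.865% and 0.645%, and the germinal centre and precursor marker sets make up most of the distance.

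The sets did not differ alike. Germinal centre marker cells were 85, 67, 17 and 8 cells in the double knockout, the miR-146a knockout, aged WT and young WT, or 1.29%, 1.39%, 0.288% and 0.117% of annotated cells. Their share in the miR-146a knockout was 4.81 times that in aged WT (2.83 to 8.18), in the double knockout 0.93 times that in the miR-146a knockout (0.676 to 1.28; with the unnamed barcodes added 0.747, 0.583 to 0.957), and in aged WT 2.46 times that in young WT (1.06 to 5.69). Precursor marker cells were 34, 31, 3 and 3 cells, or 0.516%, 0.642%, 0.0509% and 0.0440%. Their share in the miR-146a knockout was 12.6 times that in aged WT (3.86 to 41.2), and in the double knockout 0.804 times that in the miR-146a knockout (0.495 to 1.31). With at least 5 precursor markers the counts were 8, 18, 1 and 0 cells. Other B cells were 12, 18, 15 and 17 cells, at 1.46 times in the miR-146a knockout over aged WT (0.739 to 2.90). T marker cells were 13, 9, 16 and 12 cells, at 0.686 times (0.304 to 1.55). The miR-146a knockout thus stood apart from aged WT in the first 2 sets, while the intervals for other B and T marker cells included 1. Whether the 4 ratios differ from each other was not tested.

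The germinal centre markers were almost confined to this name among the B cell names. It held 85 of 88 such cells in the double knockout, or 96.6%, 67 of 74 in the miR-146a knockout, or 90.5%, 17 of 18 in aged WT, or 94.4%, and all 8 in young WT. Precursor marker cells were different, since the name held 34 of 169 in the double knockout, or 20.1%, 31 of 188 in the miR-146a knockout, or 16.5%, 3 of 76 in aged WT, or 3.95%, and 3 of 119 in young WT, or 2.52%. In each library more of the precursor marker cells were named Trans B, the transitional B cells, than GC Centrocyte. The marker counts were not adjusted for depth, so shallower cells can miss a limit. Median depths by library were 1678 to 2296 UMIs in Fo B cells and 3216 to 3967 in cells named GC Centroblast. Germinal centre marker cells had a median of 5594.

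**Figure D2:**
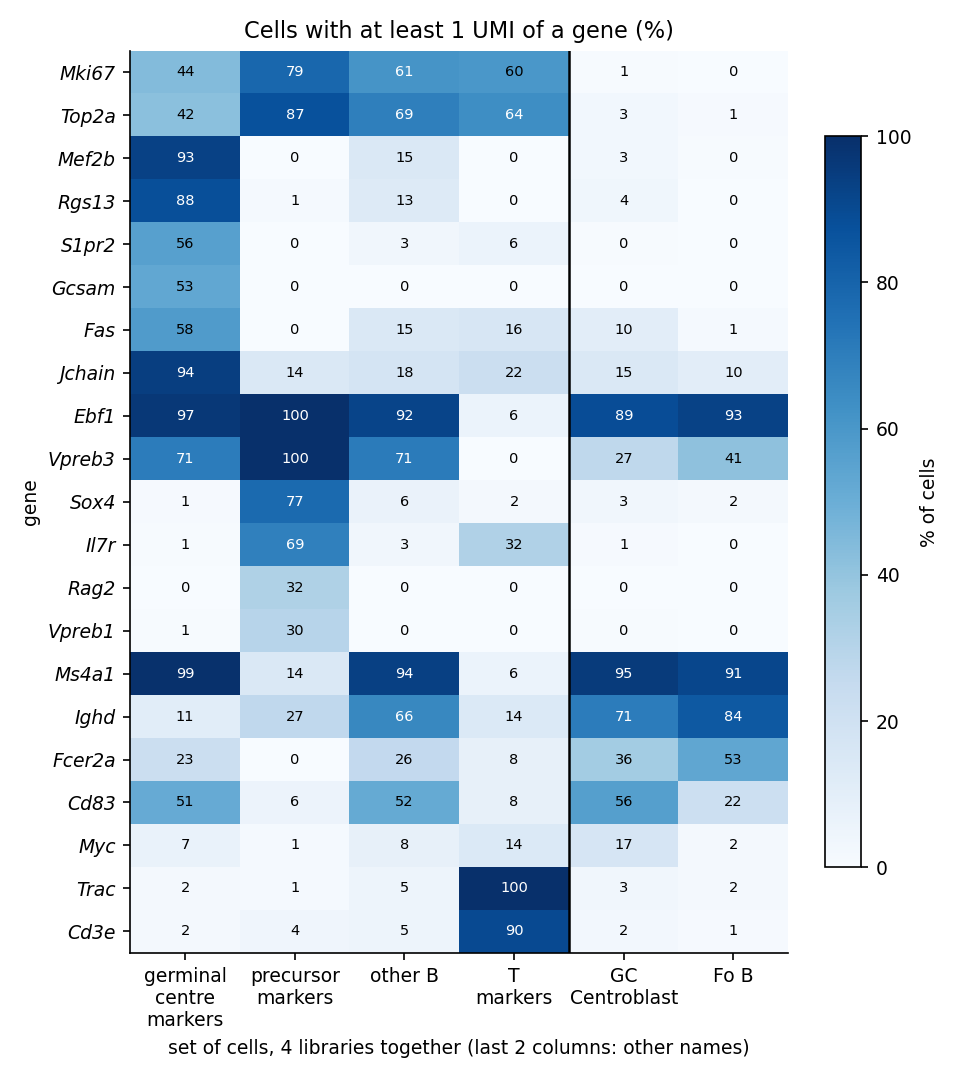
Share of cells with at least 1 UMI of a gene, for the 4 large marker sets under the name GC Centrocyte and, right of the line, for the cells named GC Centroblast and Fo B, all 4 libraries together; most marker genes shown helped to choose the sets. Mef2b and Rgs13 are in 93% and 88% of germinal centre marker cells, Vpreb3 is in all precursor marker cells and Trac in all T marker cells, while Mki67 is in 44% to 79% of the cells of every set and in under 1% of cells named GC Centroblast.

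The germinal centre marker cells carried the programme that gives the name its germinal centre part. The markers chose these cells, so their levels are a description. Mef2b had a UMI in 93.2% of the 177 cells, Rgs13 in 88.1%, Fas, a death receptor kept on germinal centre cells, in 58.2%, and S1pr2, a receptor that holds cells in the follicle, in 55.9%. In cells named GC Centroblast, with median depths of 3216 to 3967 UMIs by library against 5594 here, the shares were 2.98%, 3.70%, 10.3% and 0.418%. In the T marker cells, which should lack the genes, they were 0%, 0%, 16% and 6% at 6719.5 UMIs. Fas is also a gene of activated T cells. Jchain, which joins antibody units, had a UMI in 94.4% of the germinal centre marker cells and 22% of the T marker cells. Bcl6, the master regulator of the germinal centre, had a UMI in only 13.0%.

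Levels within these cells were close between the 2 knockouts. Mef2b was at 639 CPM (568 to 716) in the double knockout, 686 (607 to 773) in the miR-146a knockout, 780 (619 to 971) in aged WT and 477 (292 to 737) in young WT. Basp1, a membrane-bound cytoskeletal protein on the germinal centre list, was at 513 (450 to 582), 592 (519 to 673), 302 (205 to 429) and 263 (131 to 470) CPM in the same order. The intervals of Mef2b overlapped between all 4 libraries. Those of Basp1 were higher in both knockouts than in aged WT without overlap, at 1.96 times in the miR-146a knockout (1.34 to 2.95), and in the rest of the 2 libraries Basp1 was 2.01 times higher too. Young WT rests on 8 cells.

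Fewer than all germinal centre marker cells had a cell cycle call. Each cell was thinned to 2500 UMIs so that depth did not set the call, and a phase was given where at least 10 UMIs of its list were left; 4 of the 177 cells were shallower. G2 and M phase was called in 83 of 173 cells, or 48% (40.3 to 55.7), S phase in 16, and neither in 74, or 42.8% (35.3 to 50.5). By library, G2 and M was called in 40 of 83 cells in the double knockout, 31 of 65 in the miR-146a knockout, 7 of 17 in aged WT and 5 of 8 in young WT. The shares were 48.2%, 47.7%, 41.2% and 62.5%, with intervals that overlapped throughout. Near the limit of the G2 and M call lay 22 cells, and with all UMIs of each cell the share was 71.8%, 76.1% and 70.6% in the double knockout, the miR-146a knockout and aged WT. Of the cells named GC Centroblast 6 of 1354, or 0.443%, were called G2 and M at the same depth. Free RNA in the droplets feeds phase calls too, and its part was not tested.

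The 4 sets under the name differed in how many cells were cycling. G2 and M phase was called in 66 of 69 precursor marker cells, or 95.7%, in 42 of 49 T marker cells, or 85.7%, and in 37 of 60 other B cells, or 61.7%. The median count of G2 and M list UMIs after thinning was 57 in precursor marker cells, 31 in T marker cells, 13.5 in other B cells and 9 in germinal centre marker cells, against 2 in cells named GC Centroblast. A UMI of Mki67 or Top2a was present in 67 of 71, 38 of 50, 48 of 62 and 96 of 177 cells of these sets in turn. The germinal centre marker cells were the least cycling of the 4 by each measure, and over the whole name G2 and M was called in 238 of 363 cells, or 65.6%. By library that was 67.8% in the double knockout, 64.8% in the miR-146a knockout, 56.9% in aged WT and 70.5% in young WT.

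**Figure D3:**
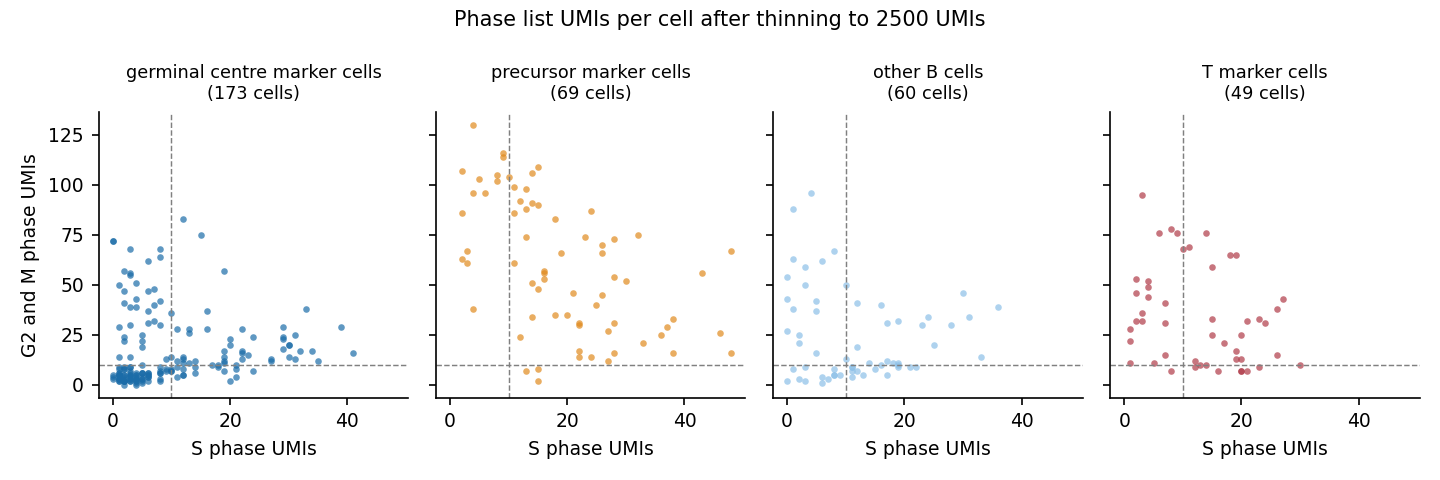
UMIs of the S phase list (x axis) and of the G2 and M phase list (y axis) in each cell after thinning to 2500 UMIs, 1 point per cell, for the 4 large marker sets, all libraries together; dashed lines mark the limit of 10 UMIs. Many germinal centre marker cells lie in the lower left corner, 74 of 173 with neither call, while precursor marker cells lie almost wholly above the G2 and M line, 66 of 69.

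Germinal centre marker cells called G2 and M were set beside those with neither call, leaving aside the genes of the phase lists, which made the call. The 83 G2 and M cells held 516573 UMIs and the 74 cells with neither call 378600, all 4 libraries together. Mybl1, a transcription factor of dividing germinal centre cells, was at 124 CPM (95.4 to 158) in G2 and M cells and 42.3 (24.2 to 68.6) in the others. Ldha, which makes lactate from pyruvate, was at 829 CPM (752 to 911) and 491 (423 to 567). S1pr2 was at 139 CPM (109 to 176) in G2 and M cells and 227 (182 to 281) in the others. Foxp1, a transcription factor that restrains germinal centre entry, was at 122 CPM (93.7 to 156) and 254 (205 to 310). Lmo2, a transcriptional adaptor of the germinal centre, was at 87.1 CPM (63.5 to 117) and 166 (128 to 213), and Cd72, an inhibitory B cell receptor, at 137 (107 to 173) and 251 (203 to 307). These 6 genes kept their order within the double knockout and within the miR-146a knockout.

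Zone genes went either way, since Lmo2 and Cd72 are of the light zone list and Foxp1 of the dark zone list, and all 3 were lower in G2 and M cells. Cxcr4, the chemokine receptor that draws cells to the dark zone, was at 23.2 CPM (12 to 40.6) in G2 and M cells and 18.5 (7.43 to 38.1) in the others, and Cd83 at 246 (205 to 293) and 288 (236 to 347). Both pairs of intervals overlapped, and Cd83 went opposite ways in the 2 knockouts, at 348 and 279 CPM in the double knockout and at 184 and 287 CPM in the miR-146a knockout. H2-Aa, an MHC class II chain, was at 2915 CPM (2770 to 3066) in G2 and M cells and 4889 (4669 to 5117) in the others, and Xbp1, the factor of the secretory programme, at 130 (101 to 165) and 328 (272 to 391). CPM is a share of a cell's UMIs, and the G2 and M cells held more UMIs each.

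Class switching set the germinal centre marker cells apart from the other sets. The isotype of a cell was read as the heavy chain constant gene with the most UMIs, at least 3. A switched gene led in 52 of 85 cells of the double knockout, or 61.2% (50 to 71.6), in 44 of 67 of the miR-146a knockout, or 65.7% (53.1 to 76.9), in 7 of 17 of aged WT, or 41.2% (18.4 to 67.1), and in 0 of 8 of young WT (0 to 36.9). The share in the miR-146a knockout was 1.60 times that in aged WT (0.881 to 2.89), and in the double knockout 0.932 times that in the miR-146a knockout (0.731 to 1.19), so neither ratio lay off 1. Ighg2b was the leading switched gene, in 32, 30, 4 and 0 cells, before Ighg1, in 17, 9, 1 and 0 cells. Ighm, of unswitched cells, led in 24, 13, 8 and 6 cells, and Ighd, Ighe and Igha led in none of the 177. In the T marker cells, which make no antibody, Ighm led in 24 of 50 and a switched gene in none, so an Ighm call is partly background. Precursor marker cells were led by Ighm in 70 of 71, and other B cells by Ighm in 57 of 62 and by a switched gene in 3.

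**Figure D4:**
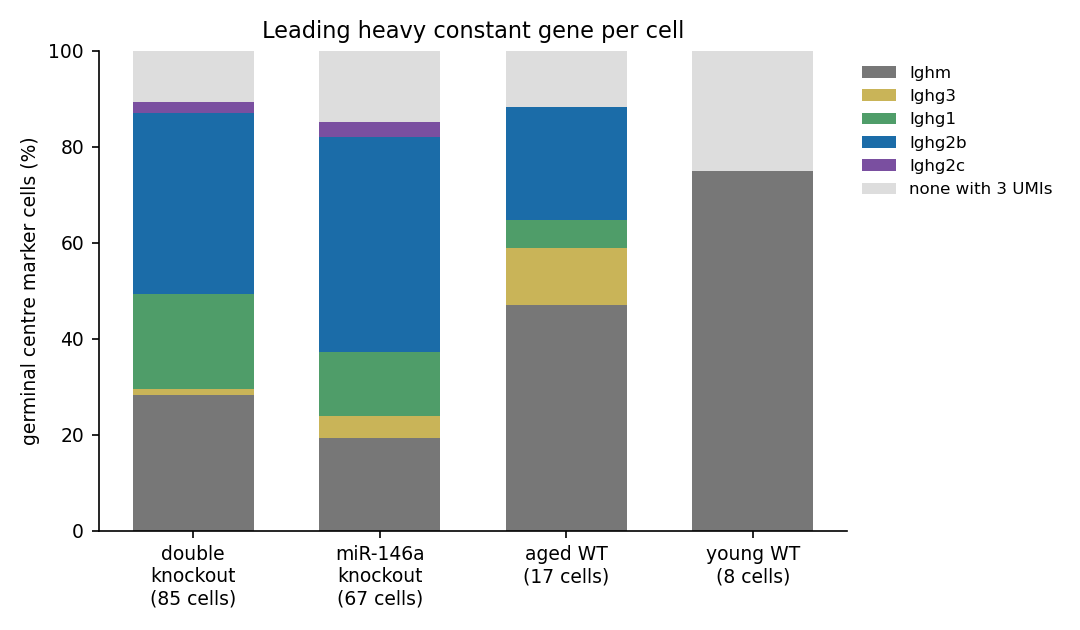
Leading heavy chain constant gene of each germinal centre marker cell, as a percentage of the cells of each library, with at least 3 UMIs needed for a call. Switched genes lead in 52 of 85 cells of the double knockout and 44 of 67 of the miR-146a knockout, in 7 of 17 of aged WT and in none of the 8 of young WT.

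Sums of single antibody genes rested on few cells. Ighg2c stood at 66.2 CPM in the double knockout, 797 in the miR-146a knockout, 29.3 in aged WT and 23.9 in young WT, but 91.1% of its UMIs in the miR-146a knockout came from 1 cell. Ighg3 stood at 158, 185, 917 and 23.9 CPM, with 83.0% of its UMIs in aged WT from 1 cell. Ighg2b was spread more widely, at 1848, 1392 and 1404 CPM in the double knockout, the miR-146a knockout and aged WT. Variable gene segments had at least 3 UMIs in 1 of the 177 cells, so clonal relations could not be read from these counts. Kappa chains led in 168 of the 177 cells and lambda chains in 9.

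The precursor marker cells carried genes of B cell development, which normally runs in the bone marrow. The markers chose these cells too, and the 3 cells each of aged WT and young WT allow little comparison. Vpreb3, a chaperone of the immature B cell receptor, was at 2777 CPM in the double knockout, 3229 in the miR-146a knockout, 1120 in aged WT and 799 in young WT. Vpreb1, part of the surrogate light chain of precursor B cells, was at 396 and 377 CPM in the 2 knockouts, with a UMI in 9 of 34 and 12 of 31 cells, and had no UMI in the 6 cells of the WT libraries. Igll1, its partner, was at 287 CPM in 9 cells and 328 CPM in 8 cells, again with none in WT. Rag2, a subunit of the recombinase that cuts antibody genes, was at 89.4 and 68.0 CPM in the 2 knockouts, with a UMI in 14 and 8 cells.

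Genes that had no part in choosing the set followed the same line. Sox4, a transcription factor of early lymphocytes, was at 517 CPM (411 to 643) in the double knockout, 718 (593 to 860) in the miR-146a knockout and 102 (12.3 to 368) in aged WT, with no UMI in young WT. Tifa, an adaptor protein of innate signalling, was at 1098 (939.9 to 1275), 1361 (1187 to 1553), 153 (31.5 to 446) and 160 (32.9 to 467) CPM. Ms4a1, which encodes CD20 of mature B cells, was at 95.8 (53.6 to 158) and 74.2 (38.4 to 130) CPM in the double knockout and the miR-146a knockout, against 2137 (1540 to 2889) and 2077 (1477 to 2839) CPM in aged WT and young WT. Igkc, the kappa light chain, was at 3249, 3049, 10585 and 14855 CPM in the 4 libraries. The few WT cells that met the limit therefore stood apart from the knockout cells in Ms4a1, Igkc and Tifa. Over the 71 cells Ms4a1 had a UMI in 14.1%, against 99.4% of germinal centre marker cells and 93.6% of other B cells. The last share is partly fixed, since Ms4a1 is among the B lineage markers that chose the other B cells. Ebf1, a founding transcription factor of the B lineage, had a UMI in 100% of the 71 cells. Unlike the genes above, it is on the precursor list that chose them.

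The precursor marker cells of the double knockout were also set against those of the miR-146a knockout. Of 1788 genes 25, or 1.40%, were at least 2-fold higher in the double knockout and 45, or 2.52%, at least 2-fold lower. Ube2c, a ubiquitin-conjugating enzyme of mitotic exit, was at 453 CPM in the double knockout and 1076 in the miR-146a knockout, a ratio of 0.421 (0.315 to 0.558). Kpna2, a nuclear import factor, was at 70.2 and 241 CPM, a ratio of 0.291 (0.135 to 0.580), and Cdc25b, a phosphatase that starts mitosis, at 134 and 346 CPM, a ratio of 0.387 (0.223 to 0.649). Jpt1 was at 396 and 847 CPM, a ratio of 0.467 (0.340 to 0.635). Mcm6, a subunit of the replicative helicase, went the other way at 504 and 210 CPM, a ratio of 2.40 (1.59 to 3.70), and Gsn, which severs actin, at 383 and 148 CPM, a ratio of 2.58 (1.58 to 4.33). In the rest of the 2 libraries Ube2c, Cdc25b, Jpt1, Mcm6 and Gsn had ratios between 1.04 and 1.13, and Kpna2 of 0.634. The G2 and M phase list had a median log2 ratio of −0.44 with 2 of 40 members lower, and the S phase list of 0.46 with 2 of 26 higher, against 0.02 over all genes. The sums of Camp and Ngp, genes of neutrophil granules that also passed, came to 91.1% and 82.6% from 1 cell.

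The other B cells were B cells below the limits of both the germinal centre and the precursor markers. They were chosen by B lineage markers, Ms4a1 among them. Ms4a1 was at 1784, 1768, 2087 and 1784 CPM in the double knockout, the miR-146a knockout, aged WT and young WT, and Ighd, of naive cells, had a UMI in 66.1% of the 62 cells, against 10.7% of germinal centre marker cells. Mki67 was at 475 (334 to 654), 238 (153 to 355), 226 (138 to 348) and 351 (244 to 488) CPM. Gcsam had no UMI in any of the 62 cells, a count of 0 that allows up to 4.84% of cells with a UMI. Mef2b had one in 14.5%. Both genes are germinal centre markers, so their low shares are partly fixed by the choice of the set. In young WT the other B cells were the largest set of the name, 17 of 44. Germinal centre marker cells were the largest in the double knockout, 85 of 150, and in the miR-146a knockout, 67 of 129. In aged WT germinal centre marker, T marker and other B cells were nearly equal, at 17, 16 and 15 of 51.

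The T marker cells were of several kinds. Trac, the constant chain of the T cell receptor, had a UMI in all 50, and Cd79a, of the B cell receptor, in 11. Cd8a or Cd8b1 without Cd4 was seen in 23 cells, Cd4 without these in 17, both in 1 and neither in 9. Foxp3, of regulatory T cells, had a UMI in 7 cells, Gzmk in 13, Gzmb in 9 and Ccl5, a chemokine of memory and killer cells, in 26. Cxcr5 and Pdcd1, both found on follicular helper cells, had a UMI in 9 and 14 cells, and Bcl6, which these helpers need, in none, which allows a UMI in up to 6% of cells and bounds detection, not expression. Igkc had a UMI in 45 of the 50, with a median of 4 UMIs against 61 in germinal centre marker cells.

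S100a6 and Lef1 are given for this small set as 1 gene each of memory and naive T cells, chosen after their values were seen. S100a6, a calcium-binding protein of memory T cells, was at 1322 CPM (1085 to 1597) in the double knockout, 2285 (1897 to 2728) in the miR-146a knockout, 1437 (1216 to 1687) in aged WT and 79.4 (29.1 to 173) in young WT. Lef1, of naive T cells, was at 36.7 (7.58 to 107), 18.7 (0.474 to 104), 163 (94.9 to 261) and 370 (246 to 535) CPM. All 3 aged libraries lay above young WT in S100a6 and the 2 knockouts below both WT libraries in the estimate of Lef1, though the Lef1 intervals of the knockouts and aged WT overlapped. Young WT and aged WT had 12 and 16 such cells.

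The rarest cells were few enough to give 1 by 1. Haemoglobin and the other erythroid markers made up 44.5% and 56.0% of the UMIs in the 2 erythroid marker cells of the double knockout and 63.4% in that of the miR-146a knockout, and these 3 cells held 8, 1 and 11 UMIs of Mki67. They had 17, 15 and 16 of the 18 proliferation markers. No such cell was found under the name in aged WT or young WT, which allows up to 0.0509% and 0.0440% of annotated cells. The 1 platelet marker cell, in young WT, had 11 of 12 markers, 237 UMIs of Pf4 and 7 of Itga2b, no UMI of Mki67 or Top2a, and an S phase call. Pf4 is a chemokine of platelet granules and Itga2b the platelet integrin chain. Of the 2 NK marker cells, that of the miR-146a knockout had all 8 markers with 29 UMIs of Nkg7, and that of young WT had 6 with 33 of Gzma. The myeloid marker cell, in the double knockout, had 236 UMIs of the lysozyme gene Lyz2. Among the 7 unresolved cells 1 of the miR-146a knockout had 590 UMIs of Prss34 and 449 of Mcpt8, protease genes of basophils. Erythroid genes were not confined to these cells. At least 10 erythroid UMIs were held by 11 of 131 B cells of the double knockout and 8 of 116 of the miR-146a knockout. The counts were 2 of 35 in aged WT and 0 of 28 in young WT.

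Comparisons of the whole name between libraries move with its makeup. T marker cells were 13 of 150 cells in the double knockout, 9 of 129 in the miR-146a knockout, 16 of 51 in aged WT and 12 of 44 in young WT, and precursor marker cells 34, 31, 3 and 3. Of 4388 genes 202, or 4.60%, were at least 2-fold higher in the miR-146a knockout than in aged WT and 132, or 3.01%, at least 2-fold lower. The double knockout against aged WT, which shares that control, had 200 of 4590, or 4.36%, higher and 127, or 2.77%, lower. Double knockout and miR-146a knockout stood closer, with 55 of 5460, or 1.01%, higher in the double knockout and 50, or 0.916%, lower. Aged WT had 72 of 2791 genes, or 2.58%, higher than young WT and 37, or 1.33%, lower. Genes entered with at least 30 UMIs over both libraries, and the smaller WT sets let fewer genes enter. Ratios to these smaller sets also carry more counting error, which can take genes past 2-fold.

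Named genes higher in the miR-146a knockout than in aged WT included genes of early B cells and of neutrophils. Sox4 was at 169 CPM and 6.35 CPM, 26.6 times higher (7.21 to 222), against 2.08 times in the rest of the 2 libraries. Tifa was at 329 and 44.4 CPM, 7.41 times higher (4.33 to 13.8), against 2.29 times. Vpreb1 was at 84.4 CPM with no UMI in aged WT, at least 8.86 times higher, and 47.9 times higher in the rest. S100a8, S100a9, Camp and Ngp, genes of neutrophils, passed as well, and so did Tpm3-rs7. S100a8 was at 250 and 3.17 CPM and Tpm3-rs7 at 299 and 3.17 CPM, which is 78.9 and 94.4 times higher, and in the rest of the libraries they were 43.5 and 33.5 times higher. These genes differed between the whole libraries and not in these cells alone. Car2, an erythroid carbonic anhydrase, was at 102 CPM with no UMI in aged WT, at least 10.7 times higher, with 54.7% of its UMIs in 1 cell. Fcer1g, at 68.0 and 3.17 CPM, had 54.0% in 1 cell.

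T cell genes led the genes that were lower in the miR-146a knockout. Cd3d, a chain of the T cell receptor complex, was at 69.4 CPM against 349 in aged WT, a ratio of 0.199 (0.140 to 0.280), and at 0.944 in the rest. Sh2d1a, a signalling adaptor of T cells, was at 21.8 and 165 CPM, a ratio of 0.132 (0.0703 to 0.235). Ccl5 was at 335 and 1497 CPM, a ratio of 0.224 (0.191 to 0.261). All 11 members of the T cell list that entered were at least 2-fold lower, against 3.01% of all genes, with a median log2 ratio of −2.22. Of the germinal centre B list 7 of 12 were higher with a median of 1.15, and of the B cell precursor list 3 of 6 with a median of 1.27, against 4.60% and 0.00 over all genes. Of the mature resting B list 4 of 8 were lower with a median of −1.10. The proliferation list had 1 of 18 members higher and a median of 0.33. The shares of the sets given above moved with all of these lists.

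The same libraries were compared within the germinal centre marker cells, which were chosen by at least 5 genes of the germinal centre B list, so that list is partly fixed by the choice. Of 2405 genes 119, or 4.95%, were at least 2-fold higher in the miR-146a knockout than in aged WT and 51, or 2.12%, at least 2-fold lower. The germinal centre B list had 1 of 12 members higher and a median log2 ratio of 0.45, the proliferation list 1 of 16 and −0.04, the light zone list 1 of 9 higher, 1 lower and 0.08, and the MHC class II list 1 of 11 higher and 0.09, against −0.11 over all genes. Apoe, a lipid carrier, was at 595 CPM in the miR-146a knockout and 1443 in aged WT, a ratio of 0.412 (0.334 to 0.510), with 44.6% of the aged WT UMIs in 1 cell. Vcp, an ATPase that unfolds proteins for the proteasome, was at 228 and 497 CPM, a ratio of 0.458 (0.321 to 0.659), against 0.999 in the rest of the libraries. Arhgef2, a guanine nucleotide exchange factor, was at 81.0 CPM with no UMI in aged WT, at least 2.77 times higher, and Ctdp1, a phosphatase of RNA polymerase, at 93.7 CPM with none, at least 3.2 times higher. Both were near 1 in the rest of the libraries, at 1.03 and 0.869. S100a8, S100a9 and Tpm3-rs7 completed the 5 higher genes that met the naming rule. Aged WT rests on 17 cells in this comparison.

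The double knockout against aged WT in the same cells had 147 of 2716 genes, or 5.41%, higher and 75, or 2.76%, lower. Bub3, of the mitotic checkpoint, was at 308 CPM in the double knockout and 107 in aged WT, 2.87 times higher (1.56 to 5.87). Hspa9, a mitochondrial chaperone, was at 79.1 and 244 CPM, a ratio of 0.324 (0.190 to 0.562). Apoe was at 658 and 1443 CPM, a ratio of 0.456 (0.374 to 0.558). The germinal centre B list had none of 12 members past 2-fold and a median of 0.17, against −0.09 over all genes.

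**Figure D5:**
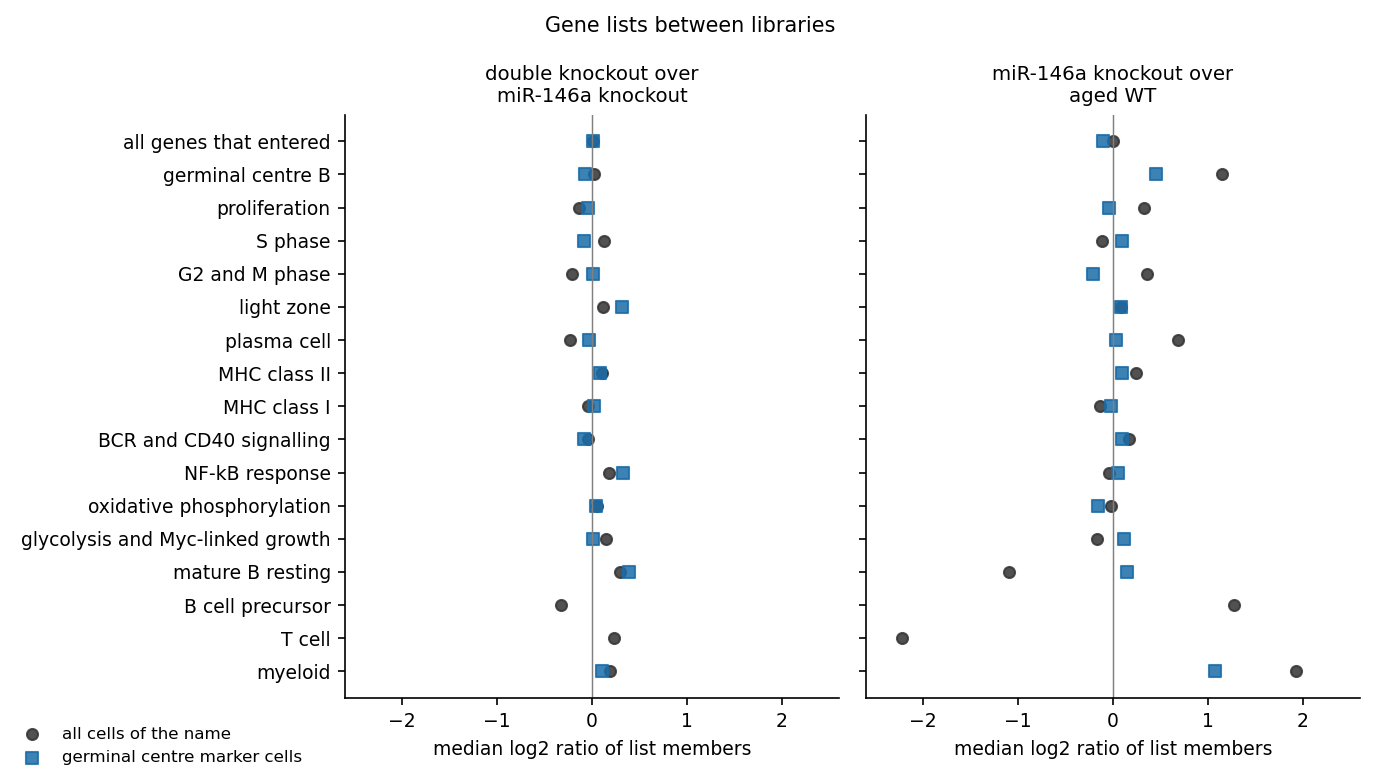
Median log2 ratio of the members of each gene list that had at least 30 UMIs over both libraries, for the double knockout over the miR-146a knockout (left) and the miR-146a knockout over aged WT (right); circles are all cells of the name, squares the germinal centre marker cells, and lists with fewer than 3 members are not drawn. On the right the T cell list stands at −2.22 and the germinal centre B list at 1.15 for all cells of the name, against 0.45 for the germinal centre B list in the germinal centre marker cells.

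A smaller share of genes passed 2-fold between double knockout and miR-146a knockout in the germinal centre marker cells than against aged WT. The 2 knockouts held 468061 and 395065 UMIs in these cells and aged WT 102532, so ratios to aged WT carry more counting error. By the naming rule 5 genes were higher and 2 lower, the same counts as for the miR-146a knockout over aged WT. Of 3664 genes 53, or 1.45%, were at least 2-fold higher in the double knockout and 42, or 1.15%, at least 2-fold lower. None of the 12 germinal centre B genes and none of the 13 light zone genes passed 2-fold, with medians of −0.07 and 0.32 against 0.01 over all genes. Rpgrip1, of the cilium, was at 40.6 CPM in the double knockout and 127 in the miR-146a knockout, a ratio of 0.321 (0.179 to 0.554), against 0.951 in the rest. Ubtf, a transcription factor of ribosomal RNA genes, was at 96.1 and 213 CPM, a ratio of 0.452 (0.308 to 0.657). Higher were Lsg1, a GTPase of ribosome assembly, at 83.3 and 25.3 CPM, a ratio of 3.29 (1.61 to 7.40), Mllt10 at 87.6 and 27.8 CPM, a ratio of 3.15 (1.59 to 6.79), and Cenpf, a kinetochore protein, at 85.5 and 27.8 CPM, a ratio of 3.07 (1.55 to 6.63). Plac8 was at 68.4 and 17.7 CPM, a ratio of 3.86 (1.67 to 10.4). Slpi, a secreted protease inhibitor, was at 438 and 200 CPM, a ratio of 2.19 (1.68 to 2.88), with 55.1% of the double knockout UMIs in 1 cell. Cd83 was at 299 and 223 CPM, a ratio of 1.34 (1.02 to 1.77), and Il4i1, an enzyme of light zone cells, at 188 and 106 CPM, a ratio of 1.77 (1.21 to 2.62). In the cells called G2 and M, Cd83 was at 348 and 184 CPM and Il4i1 at 194.5 and 56.1 CPM. With neither call the order turned, at 279 and 287 CPM for Cd83 and 139.6 and 163 CPM for Il4i1.

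Over the whole name the same pair gave few named genes. Pcm1, of the centriolar satellites, was at 81.8 CPM in the double knockout and 29.9 in the miR-146a knockout, 2.73 times higher (1.67 to 4.65). Bloc1s1 was at 12.2 and 49.0 CPM, a ratio of 0.249 (0.110 to 0.513), and Wdr74 at 8.55 and 34.0 CPM, a ratio of 0.251 (0.0918 to 0.598). Tnfrsf4, the OX40 receptor of T cells, was at 40.3 and 5.44 CPM, a ratio of 7.41 (2.63 to 28.8), and Ramp1, a receptor partner, at 39.1 and 5.44 CPM, a ratio of 7.18 (2.55 to 28). Lyz2 was at 365 and 69.4 CPM with 78.9% of its UMIs in 1 cell, the myeloid marker cell. Cxcr4 was at 14.7 and 32.7 CPM, a ratio of 0.449 (0.205 to 0.933), the 1 gene of 11 in the dark zone list past 2-fold, beside 0.916% of all genes lower, and at 0.643 in the rest of the libraries.

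The aged WT library was compared with the young WT library, where age cannot be told apart from mouse pool or preparation. S100a6 was at 476 CPM in aged WT and 48.7 in young WT, 9.78 times higher (5.55 to 18.8), against 2.66 times in the rest. Jchain was at 644 and 176 CPM, 3.66 times higher (2.65 to 5.14), with 3.24 times in the rest. Mef2b was at 260 and 74.9 CPM, 3.47 times higher (2.11 to 5.98). Cr2, the complement receptor of mature B cells, was at 28.6 and 139 CPM, a ratio of 0.206 (0.0875 to 0.435), where the rest of the libraries had 1.31. Of the germinal centre B list 3 of 9 members were higher with a median log2 ratio of 0.70, and of the proliferation list 0 of 18 with a median of −0.23, against 2.58% of all genes and 0.02. Germinal centre marker cells were 17 of 51 cells in aged WT and 8 of 44 in young WT beside these values.

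The genes of the 2 microRNAs gave little in these cells. Mir155hg had 5 UMIs in 4 cells of the double knockout and 4 UMIs in 3 cells of the miR-146a knockout, with none in aged WT or young WT, where 0 counts allow up to 9.52 and 11.2 CPM. Its levels in the knockouts, 6.11 and 5.44 CPM, lay below these limits. The deletion of miR-155 is labelled as one of T cells, and the mature microRNAs were not measured. Of the literature targets of miR-146a, 0 of the 4 that entered over the whole name were at least 2-fold higher in the miR-146a knockout than in aged WT, with a median log2 ratio of 0.15, and 0 of 3 in the germinal centre marker cells, with 0.01, beside 4.60% and 4.95% of all genes. Of the literature targets of miR-155 none of 10 was past 2-fold between double knockout and miR-146a knockout, with a median of −0.09, beside 1.01% of all genes higher and 0.916% lower, so these counts say little about the lists. Nfkb2, an NF-kB subunit, was at 68.0 CPM in the miR-146a knockout and 25.4 in aged WT, 2.68 times higher (1.26 to 6.55), the 1 gene of 14 in the NF-kB response list past 2-fold, beside 4.60% of all genes higher.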

How the data were processed

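Raw UMI counts per gene and cell were deposited by the authors for 4 libraries of mouse spleen, with an annotation that gives each cell a name. Cell Ranger 3.0.0 and the build mm10 stand in the submitters' processing notes, and the matrices list 31053 genes. The annotation column holds names as the authors deposited them. UMIs were summed over cells of a name or marker set in each library and given as CPM with exact Poisson intervals. Ratios carry conditional binomial intervals, shares exact Clopper-Pearson intervals and ratios of shares Katz intervals, all at 95% and for counting error only. A gene entered a comparison with at least 30 UMIs over both libraries and was counted at 2-fold. To be named, a gene needed 20 UMIs or more, spread over 10 cells or more, in the higher library and an interval wholly beyond 1.5-fold, up to 10 per direction; antibody, T cell receptor, haemoglobin, mitochondrial, ribosomal, sex-linked and unnamed genes were left out. Genes named outside this rule are members of the lists or were chosen after their values were seen. Fold limits use a floor of 3 counts per library. Doublets were not called, and 7 cells carried both T and B markers. Members and lists were chosen with earlier results of these data known. Python 3.11.15, scipy 1.17.1 and, for TMM scaling as an alternative, edgeR 4.0.16 were used, and the scripts were tested on simulated data. Results on certain withheld items are not reported here.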

Additional observations from a re-analysis of the deposited data

Results flagged for a closer look

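Some barcodes above 9000 UMIs have no name in the annotation and entered no comparison of named cells, yet many of them held germinal centre markers. At least 5 of the 15 markers were found in 37 of 240 such barcodes in the double knockout, 55 of 271 in the miR-146a knockout, 9 of 92 in aged WT and 2 of 42 in young WT. At least 5 proliferation markers were also present in 35, 54, 8 and 2 of them. Precursor markers were found in 9, 12, 0 and 0 of the barcodes. Whether these barcodes are single cells or doublets was not tested.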

How the results depend on the processing

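No paired analysis was possible because each group had 1 library. Counts of genes past 2-fold moved most with the minimum of UMIs and the fold. With at least 100 UMIs the genes higher and lower were 3 and 5 for double knockout over miR-146a knockout, 44 and 27 for double knockout over aged WT, 43 and 27 for miR-146a knockout over aged WT, and 8 and 3 for aged over young WT. With at least 10 UMIs they were 375 and 333, 678 and 498, 668 and 509, and 449 and 347 in the same order. At 1.5-fold they were 329 and 331, 592 and 391, 625 and 403, and 264 and 214. Without non-B cells 66 and 80 genes were lower in the double knockout and the miR-146a knockout than in aged WT, and in germinal centre marker cells 75 and 51, with 119 higher in the miR-146a knockout and 23 higher in aged than in young WT. Lists of at least 5 genes with a median past 2-fold, 4 for double knockout and 6 for miR-146a knockout over aged WT, were then 1 and 2 without non-B cells and 0 and 1 in germinal centre marker cells. With at least 100 UMIs there were 3 for miR-146a knockout over aged WT, and with at least 10 there were 1 for double knockout over miR-146a knockout and 2 for aged over young WT. With unannotated barcodes above 9000 UMIs, the double knockout stood at 0.733 times the miR-146a knockout for the name and 0.747 (0.583 to 0.957) for germinal centre marker cells, and aged WT at 1.51 times young WT. The precursor limit, varied after seeing the data, gave 116 cells at 2 markers and 46 at 4. With all UMIs of each cell, G2 and M shares of the name were 84%, 85.3%, 86.3% and 84.1% in the double knockout, the miR-146a knockout, aged WT and young WT, and of germinal centre marker cells 71.8%, 76.1% and 70.6% in the first 3. Another minimum of UMIs lets fewer or more genes enter, and another fold moves the limit itself, by construction; the cause of the other differences was not tested. Of 754 list medians under an alternative 746 stayed on their side of 2-fold, and none past 2-fold turned its sign; lists left with fewer than 5 genes gave no median and are not among the 754. Few UMIs in the WT libraries, with 17 germinal centre marker cells in aged WT and 8 in young WT, limit what can be seen there.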
